A study of Mus musculus with 7 samples.

Results

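Macrophages that carry RNA for the chemokine Cxcl9 were followed through 7 single-cell libraries of mouse brain tumours. The barcodes entered had 1000 UMIs (molecules counted once each) and 500 genes or more, with no more than 15% of UMIs from mitochondrial genes. A cell was counted as a C1q macrophage when it had at least 5 UMIs over C1qa, C1qb and C1qc, 0 UMIs of the microglial genes P2ry12, Tmem119 and Sall1, and 0 UMIs of Cd3d, Cd3e and Cd3g. It was counted as Cxcl9-positive when it also had at least 1 Cxcl9 UMI. Of 51795 cells kept, 1072 were C1q macrophages, and 523 of these were Cxcl9-positive; the other 549 are called Cxcl9-negative. The cells were chosen by the measured counts of these 10 genes, so their levels are described and not tested between the Cxcl9-positive and Cxcl9-negative cells.

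All tumours grew from the NSCG-mCherry line, which carries EGFRvIII and lacks Arf/Ink4a, in C57BL/6 mice of 7 to 10 weeks with a wild-type genotype label. UT received no treatment. IgG received an IgG2b isotype antibody at 10 mg/kg, and BP received the VEGF-blocking antibody B20 (5 mg/kg) together with anti-PD-L1 (10 mg/kg), injected into the peritoneum every 3 days from day 6 to 7 after implantation. BPI received the BP antibodies and daily IPI-145 at 10 mg/kg by gavage, an inhibitor of the delta and gamma isoforms of PI3K; the IgG controls of the BPI schedule also received the gavage diluent, and the labels do not tell which IgG library this was. CD40 received 100 µg of a CD40 agonist antibody per dose, 5 days apart for 2 doses, and the labels do not settle if these mice also had a vaccine of dendritic cells. Tumours were taken at about day 14. There were 2 libraries of IgG, 2 of BP and 1 each of BPI, CD40 and UT. Each library pools at least 2 mice and counts as 1 replicate, so that p-values measure the spread between pooled libraries only. All groups rest on 1 tumour line.

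Cxcl9 is a secreted ligand of the receptor Cxcr3, which activated T cells and NK cells carry, and a gradient of it draws such cells into inflamed tissue. Macrophages make it mainly in answer to interferon gamma from T cells and NK cells, which acts on GAS elements and through Irf1; the neighbouring gene Cxcl10 also answers to type I interferon through ISRE elements. The same signal is known to raise antigen presentation, the interferon-induced GTPases that guard against intracellular microbes, and the checkpoint ligand PD-L1.

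The 7 libraries held 5626 to 10539 cells each, with 8855 to 17876 UMIs per cell in the median. Macrophage markers fixed beside the rule were present in the Cxcl9-positive cells. All 11 markers of macrophage identity that the rule did not use (among them Adgre1, Csf1r, Cd68, Mertk and Apoe) had UMIs in BP 1, BP 2, BPI and UT, and their summed level was 12950 to 21965 CPM (UMIs of a gene per 1000000 UMIs of the same cells). This was not higher than in the comparators throughout. The C1q macrophages of IgG 1 and IgG 2 had 13610 and 49058 CPM. Cxcl9-negative cells had 17618 CPM in BP 1, 23778 in BP 2 and 21634 in BPI, against 15083, 21965 and 12950 in the Cxcl9-positive cells. In UT the order was the other way, with 2703 against 18537 CPM. The remaining 9 T cell markers summed to 11.9 to 38.5 CPM, the 6 B cell markers to 23.2 to 59.5 CPM and the 7 neutrophil markers to 32.9 to 84.5 CPM. In IgG 1 and IgG 2 the T cell markers summed to 0 and 10.9 CPM. The B cell markers summed there to 58.7 and 21.7 CPM, and the neutrophil markers to 26.7 and 97.7 CPM. The 14 tumour and glial genes summed to 1066 to 1868 CPM, against 1451 and 771 in the C1q macrophages of IgG. The 9 NK cell markers summed to 87.2 to 405 CPM, against 16 and 0 CPM in IgG, and Klrk1, the one of them tested against IgG, rose in BPI and UT. The 12 dendritic cell markers summed to 143 to 364 CPM, against 133 and 250 CPM in IgG, and the 7 endothelial markers to 71.4 to 489 CPM, highest in BP 1, against 26.7 and 94.1 CPM. The part of these markers in the results was not tested. Monocyte markers (12) summed to 3939 to 6632 CPM, against 2027 CPM in IgG 1 and 228 CPM in IgG 2, and the 9 microglial markers outside the rule summed to 466 to 964 CPM, against 1248 and 2954 CPM. The cells thus had macrophage markers, with more monocyte and less microglial RNA than the C1q macrophages of IgG, and some gated barcodes were deep but poor in myeloid RNA. In UT, 35.6% of the Cxcl9-negative cells and 16.5% of the Cxcl9-positive cells were below 1000 CPM over 7 myeloid genes (among them Tyrobp, Fcer1g, Csf1r, Cd68, Lyz2 and Adgre1) or below 1000 CPM of C1q. The same held for 14.5% and 6.91% of these cells in BP 1, 8% and 8.33% in BP 2, and 21.2% and 0% in BPI. Among the IgG macrophages, all Cxcl9-negative, it held for 33.3% in IgG 1 and 7.14% in IgG 2, and leaving them out lowered the UMIs of IgG 1 from 187510 to 87239. The main counts are therefore also given with these minimums, which were set after the data had been seen. With them the macrophage identity sum was 12950 to 24297 CPM in the Cxcl9-positive cells, against 25252 and 57989 CPM in IgG 1 and IgG 2. UT stands apart in other ways. Its barcodes come from another barcode list than those of the other 6 libraries, its Cxcl9-positive cells had 0 Xist UMIs against 296 to 376 CPM in BP 1, BP 2 and BPI, and the ribosomal RNA-like transcript Gm42418 was at 109 CPM against 5978 to 32753 CPM. No 2 libraries shared more than 0.384% of their cell barcodes.

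The first question was in which tumours C1q macrophages carried Cxcl9. None did in IgG: 0 of 21 in IgG 1, where 3 counts over the cells allow a share of up to 14.3% (exact upper limit 16.1%), and 0 of 28 in IgG 2, where they allow up to 10.7% (exact upper limit 12.3%). In BP 1, 362 of 693 did (52.2%, exact 95% interval 48.4 to 56.0). In BP 2 the number was 12 of 37 (32.4%, 18.0 to 49.8). Both BP libraries therefore lay above both IgG libraries. The single BPI library had 33 of 66 (50%, 37.4 to 62.6), and UT had 115 of 174 (66.1%, 58.5 to 73.1), so the untreated tumours held the highest share and the isotype-treated tumours none. CD40 had 1 of 53 (1.89%, 0.0478 to 10.1). With the minimums the shares were 54.4% in BP 1, 32.4% in BP 2, 55.9% in BPI, 71.6% in UT, 2.27% in CD40 and 0 in both IgG libraries. The mean share was 42.3 percentage points higher in BP than in IgG, with p = 0.333 by a two-sided exact permutation test, which is the smallest that 2 libraries against 2 can give. IgG 1, BP 2 and BPI have consecutive library names, and within them the shares were 0, 32.4 and 50%; CD40 and IgG 2, also consecutive, had 1.89 and 0%.

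**Figure D1:**
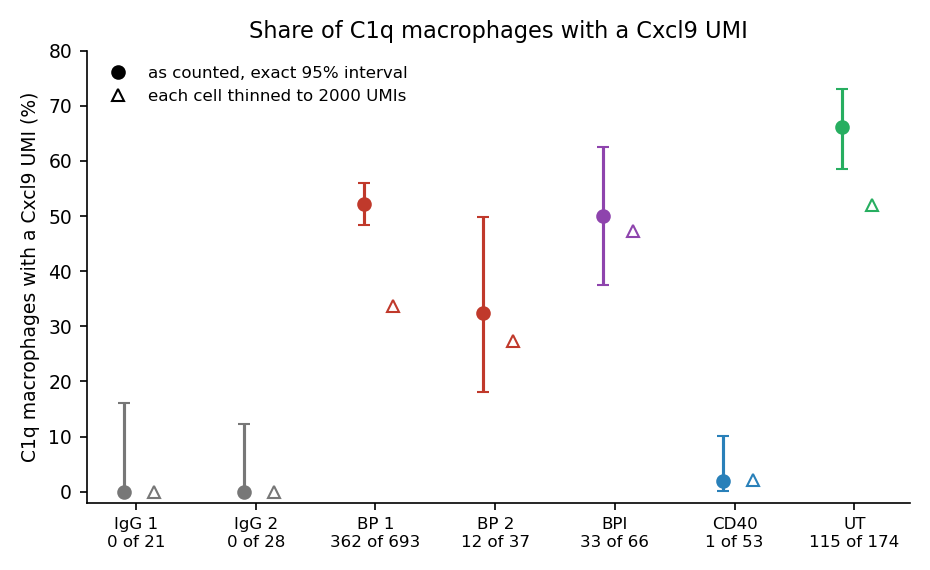
Share of C1q macrophages with at least 1 Cxcl9 UMI (vertical axis, percent) in each library (horizontal axis, with the number of Cxcl9-positive cells of all C1q macrophages). Circles are the counted share with its exact 95% interval and triangles the share after each cell was thinned to 2000 UMIs; BP 1, BP 2, BPI and UT lie between 27.3 and 66.1%, and IgG 1, IgG 2 and CD40 at 2.17% or less.

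C1q macrophages were 6.58% of the cells in BP 1 and 3.09% in UT, against 0.616% in BP 2, 0.938% in BPI, 0.637% in CD40, 0.336% in IgG 1 and 0.350% in IgG 2. Cxcl9-positive macrophages were 3.43% of all cells in BP 1, 2.04% in UT, 0.469% in BPI and 0.200% in BP 2. The cells of BP 1 and UT make up most of the 523, so levels below are given per library.

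Depth moved with the share. Cxcl9-positive cells had more UMIs in the median than Cxcl9-negative ones in all 4 libraries that hold at least 10 of each: 10352 against 6275 in BP 1, 6515 against 5488 in BP 2, 5996 against 4245 in BPI and 12636 against 5823 in UT. In BP 1 the share with Cxcl9 was 30.1% in the shallowest of 4 depth classes, 65.2% in the second deepest and 56.6% in the deepest. In UT these were 40.9%, 84.8% and 73.3%, so the share did not rise further in the deepest cells. After each cell was thinned to 2000 UMIs the share was 33.7% in BP 1, 27.3% in BP 2, 47.3% in BPI and 52% in UT, with 0 in both IgG libraries and 2.17% in CD40. Thinning thus brought BP 1 close to BP 2, and left BPI and UT above both.

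The condition on microglial genes sets how many cells the IgG libraries contribute. Most of their cells with C1q had a UMI of P2ry12, Tmem119 or Sall1, 162 in IgG 1 and 819 in IgG 2. With that condition dropped, Cxcl9 was found in 2.19% of 183 cells in IgG 1, 0.354% of 847 in IgG 2, 53.3% of 1339 in BP 1 and 7.66% of 235 in BP 2, so that the BP libraries were far apart but still above both IgG libraries. BPI then had 21.02%, CD40 1.55% and UT 61.9%.

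Free RNA in the droplets gives a background for such shares. Empty droplets of 1 to 50 UMIs held Cxcl9 at 114 CPM in BP 1, 13.2 CPM in BP 2, 147 CPM in BPI and 170 CPM in UT. T cells (at least 2 Cd3 UMIs and no C1q UMI), which are not known as a source of Cxcl9, had a Cxcl9 UMI in 3.03% of cells in BP 1, 0.457% in BP 2, 3.38% in BPI and 6.12% in UT, at median depths of 2792 to 6082 UMIs. The shares among C1q macrophages were far above these. Among 107 Cxcl9-positive cells of BP 1, 20 of UT, 2 of BP 2 and 2 of BPI the call rests on 1 UMI.

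The amount of Cxcl9 per positive cell differed between libraries. The median was 3 UMIs in BP 1, 6.5 in BP 2, 17 in BPI and 10 in UT, and the highest cell had 144, 52, 100 and 100 UMIs. These counts, like the classes that follow, are not scaled to depth. Scaled to depth, Cxcl9 was at 923 CPM in the Cxcl9-positive cells of BP 1, 1702 in BP 2, 3213 in BPI and 1137 in UT. By that measure BP 2 lay above UT. Cells with 10 or more Cxcl9 UMIs were 14.9% of the C1q macrophages in BP 1, 10.8% in BP 2, 31.8% in BPI and 33.3% in UT. Just inside and just outside the thresholds, cells with 5 to 6 C1q UMIs had Cxcl9 in 11 of 53 cells of BP 1 and 15 of 33 of UT, and cells with 3 to 4 C1q UMIs in 52 of 269 and 49 of 209. In BP 2 these were 0 of 1 inside and 4 of 8 outside, and in BPI 1 of 6 and 6 of 9. The median depth inside and outside was 9689 and 21323 UMIs in BP 1 and 32085 and 26696 in UT.

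**Figure D2:**
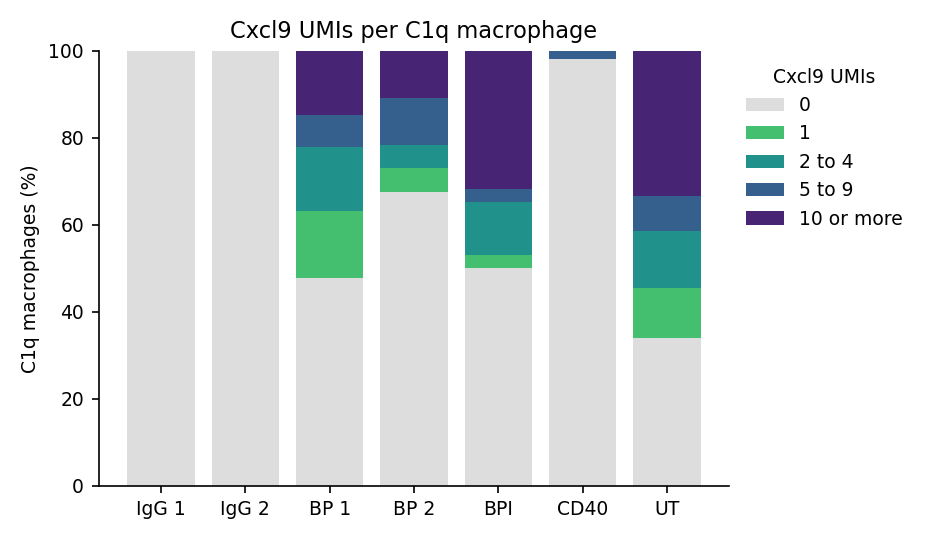
C1q macrophages of each library (horizontal axis) divided by the number of Cxcl9 UMIs in the cell (stacked bars, percent of C1q macrophages). The class with 10 or more UMIs takes 31.8% of the cells in BPI and 33.3% in UT, 14.9% in BP 1 and 10.8% in BP 2, and no cell in IgG 1, IgG 2 or CD40. The UMI counts are not scaled to depth.

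Because the rule picks macrophages on other genes, the Cxcl9 level over all C1q macrophages, positive and negative together, is not fixed by it and was tested. Cxcl9 itself was chosen with earlier results of these data known, and the p-values do not allow for that choice. It was 533 CPM in BP 1 and 525 CPM in BP 2, and no UMI was counted in either IgG library. BP was thus at least 81.8-fold higher than 3 counts over the IgG group would give, with adjusted p = 0.00038 in edgeR's quasi-likelihood test with Benjamini-Hochberg adjustment, in which 138 of 7398 genes passed (1.87%; 1.39% higher and 0.473% lower). BPI had 1681 CPM, at least 260-fold higher than that floor (adjusted p = 7.45e-05, edgeR's quasi-likelihood test; 0.906% of genes passed, 0.892% higher and 0.0135% lower). UT had 787 CPM, at least 122-fold higher, and was not part of this fit. CD40 had 10.5 CPM from 8 UMIs in 1 cell (adjusted p = 1, edgeR). The BP call was lost without BP 1 (adjusted p = 0.0596, edgeR) and when the microglial condition was dropped (adjusted p = 0.738). The BPI call was lost there too (adjusted p = 0.826, edgeR). In that fit of 15182 genes none passed in BP or BPI, with 937 and 649 at an unadjusted p under 0.05.

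Cxcl9 RNA was not limited to these macrophages. They held 18.8% of all Cxcl9 UMIs in BP 1, 15.5% in UT, 8.07% in BP 2 and 6.53% in BPI. Cells with a leukocyte gene but no C1q and no Cd3 UMI held 73.6% in BP 2 and 74.9% in BPI, but 19.97% in BP 1 and 15.4% in UT. Macrophages with C1q and a microglial-gene UMI held another 25.05% in BP 1, 29.9% in UT, 3.27% in BP 2 and 2.39% in BPI. Cells with 1 to 4 C1q UMIs, a leukocyte gene and no Cd3 UMI held 20.4% in BP 1, 19.97% in UT, 3.16% in BP 2 and 6.84% in BPI.

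The promoters of Cxcl9 and of 2 genes that rose with it against IgG, Cxcl10 and Gbp2, are shown because interferon is known to act through such elements. Each runs from 250 bases before to 50 after a RefSeq start site on GRCm38.p6, 5′ to 3′ on the gene's strand, and capitals mark the ISRE pattern, here GAAA, any 2 bases and GAAA, or on the other strand TTTC, any 2 bases and TTTC. Cxcl9 lies at chr5:92321347-92328079 and its shown window at chr5:92328030-92328329, minus strand. Cxcl10 lies next to it at chr5:92346638-92348889, with its window at chr5:92348840-92349139, minus strand. Gbp2 lies at chr3:142620602-142638008, with its window at chr3:142620413-142620712, plus strand. The RefSeq start used for Gbp2 lies downstream of the first base of this GENCODE gene span.
Cxcl9: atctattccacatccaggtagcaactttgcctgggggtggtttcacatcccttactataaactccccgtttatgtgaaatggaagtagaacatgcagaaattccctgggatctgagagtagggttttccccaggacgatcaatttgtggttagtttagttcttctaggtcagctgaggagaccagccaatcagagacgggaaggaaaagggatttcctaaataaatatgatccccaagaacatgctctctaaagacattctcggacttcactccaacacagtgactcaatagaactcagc
Cxcl10: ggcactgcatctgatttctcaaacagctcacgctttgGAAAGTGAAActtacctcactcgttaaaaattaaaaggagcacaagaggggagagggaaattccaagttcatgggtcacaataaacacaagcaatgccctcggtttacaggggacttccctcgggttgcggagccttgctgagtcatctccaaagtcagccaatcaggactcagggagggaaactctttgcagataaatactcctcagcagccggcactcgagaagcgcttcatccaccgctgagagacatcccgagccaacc
Gbp2: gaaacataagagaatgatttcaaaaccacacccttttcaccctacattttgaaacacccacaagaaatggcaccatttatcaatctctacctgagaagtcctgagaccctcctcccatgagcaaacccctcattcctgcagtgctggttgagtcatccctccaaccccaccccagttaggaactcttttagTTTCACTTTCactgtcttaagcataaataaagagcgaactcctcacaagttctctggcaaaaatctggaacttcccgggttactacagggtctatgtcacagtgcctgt
In these windows the ISRE pattern begins 213 bases before the Cxcl10 start and 59 bases before the Gbp2 start, in the second case on the other strand; the Cxcl9 window holds neither it nor the GAS pattern TTCNNNGAA, and the Cxcl10 and Gbp2 windows hold no GAS match. Over all 32851 RefSeq promoters of the same length, searched on both strands, 3.44% hold the ISRE pattern and 8.30% the GAS pattern. Of 12 promoters matched for 11 of 17 interferon-induced GTPase genes, 10 hold the ISRE pattern and 6 the GAS pattern. Of 20 promoters matched for 14 of 19 lipid-associated macrophage genes, 1 holds the ISRE pattern and none the GAS pattern. Of 10 promoters matched for 9 of 12 MHC class II genes, 1 holds the ISRE pattern and 1 the GAS pattern. Of 20 promoters matched for 17 of 23 type I interferon antiviral genes, 10 hold the ISRE pattern and 4 the GAS pattern. For the 12 genes with the largest rise in BP, 8 promoters matched, with 3 ISRE and 2 GAS matches. A match is a run of letters, not a bound site.

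To see what else distinguished the Cxcl9-positive macrophages of each group, their summed counts were compared with the C1q macrophages of the IgG libraries, all of which are Cxcl9-negative. Most interferon-induced GTPases and some MHC class II genes were higher in BP, BPI and UT. Genes without a UMI in IgG, 5 of the 15 GTPases and 1 of the 10 MHC class II genes tested, could only rise. Few genes were lower over all gated cells, and more were with the minimums. In BP, 79 of 5621 genes tested were higher (1.41%) and 8 lower (0.142%). In BPI, 91 were higher (1.62%) and 2 lower (0.0356%), and in UT 121 of 6179 were higher (1.96%) and 30 lower (0.486%), 2.44% in all, each at an adjusted p under 0.05 in edgeR's quasi-likelihood test. BPI and UT have 1 library each and are assumed to vary like IgG and BP. The 3 comparisons share the IgG libraries, which supplied 187510 and 276263 UMIs from 21 and 28 cells, so they are not independent of each other. With the myeloid and C1q minimums 240 of 5369 genes passed in BP (4.47%), 167 higher (3.11%) and 73 lower (1.36%). In BPI 218 of 5369 passed (4.06%), 171 higher (3.18%) and 47 lower (0.875%), and in UT 307 of 5814 (5.28%), 206 higher (3.54%) and 101 lower (1.74%). In BP 13 of 15 GTPases, 8 of 10 MHC class II, 7 of 15 interferon gamma signalling and 7 of 20 MHC class I genes then rose, and 4 of 7 microglial, 4 of 17 lipid-associated and 3 of 10 resident and perivascular macrophage genes fell. The rule asks for 0 UMIs of 3 microglial genes, and a count of 0 excludes less in shallow cells. Median depths with the minimums were 9973 and 6420 UMIs in the Cxcl9-positive cells of BP 1 and BP 2. They were 2533.5 and 6118 UMIs in IgG 1 and IgG 2. The part of the rule and of depth in the lower microglial genes was not tested. Monocyte genes had medians of 2.05, 3.00 and 1.48 on the log2 scale over 10 tested in BP, BPI and UT, with 1 (Ly6i) called in each, and the part of this difference in the results below was not tested.

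Among the ligands, Cxcl10, the second Cxcr3 ligand, had 282 CPM in BP 1, 1963 in BP 2, 1693 in BPI and 1054 in UT, and 26.7 and 0 CPM in IgG 1 and IgG 2. It rose by 6.49 ± 1.21 (log2, SE) in BP (adjusted p = 0.0223, edgeR's quasi-likelihood test), 7.36 ± 1.29 in BPI and 6.57 ± 1.19 in UT. The IgG and Cxcl9-positive values did not overlap. Ccl5, a chemokine that draws T cells and macrophages, had 921, 595, 739 and 2730 CPM in BP 1, BP 2, BPI and UT and no UMI in IgG, at least 117-fold higher in BP, 114-fold in BPI and 422-fold in UT than 3 counts over the IgG group. Cxcr3 itself was at 0 to 9.41 CPM in the Cxcl9-positive cells, and Ifng at 0 to 2.73 CPM.

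Genes that carry the interferon gamma signal from receptor to nucleus were tested next. Of 15 genes tested, 5 rose in BP, 3 in BPI and 5 in UT, among them Irf1, Batf2 and Socs1 in each comparison, with medians over the 15 of 1.65, 1.58 and 1.17 on the log2 scale beside -0.01, -0.11 and -0.04 over all genes tested. Irf1, a transcription factor that interferon gamma induces, had 286, 286, 141 and 368 CPM against 21.3 and 7.24 in IgG, and rose by 4.31 ± 0.66 in BP (adjusted p = 0.0103, edgeR's quasi-likelihood test). Socs1, which restrains the same pathway, had 208, 178, 84.7 and 188 CPM against 0 and 7.24 in IgG. The receptor chains did not pass: Ifngr1 had 134, 11.9, 51.7 and 64.5 CPM against 58.7 and 105 in IgG, a log2 difference of -0.02 in BP.

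Interferon-induced GTPases attack the compartments in which microbes live. Of 15 tested of 17, 10 rose in BP, 9 in BPI and 13 in UT, and none fell. Of the 15, 5 had no UMI in IgG and could only rise, and all 5 are among the 10 that rose in BP. The medians were 3.90, 4.34 and 4.54 on the log2 scale, or 3.82, 4.03 and 4.15 with these 5 genes set to their lower bound. Gbp2, a guanylate-binding protein, had 497 CPM in BP 1, 238 in BP 2, 202 in BPI and 472 in UT against 5.33 and 3.62 in IgG, and rose by 6.29 ± 0.80 in BP (adjusted p = 0.00338, edgeR's quasi-likelihood test). The Gbp2 values of all 4 libraries lay far above both IgG values. Gbp5, which takes part in inflammasome assembly, had 145, 178, 221 and 103 CPM and no UMI in IgG. Gbp2b, Gbp4, Gbp8 and Irgm2 also had no UMI in IgG and rose in BP. Iigp1, an immunity-related GTPase, had 737, 440, 663 and 741 CPM against 37.3 and 29.0 in IgG.

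MHC class II genes, which present peptides to CD4 T cells, followed. Of 10 tested, 5 rose in BP, 4 in BPI and 7 in UT, with medians of 4.11, 3.94 and 4.85. With H2-Eb1, the gene without a UMI in IgG, at its bound the medians were 3.74, 3.35 and 4.18. H2-Eb1 is counted as a rise in each group and could only rise. H2-Ab1, a beta chain of the class II molecule, had 7235 CPM in BP 1, 4783 in BP 2, 5193 in BPI and 7332 in UT against 128 and 239 in IgG, and rose by 4.89 ± 0.62 in BP (adjusted p = 0.00338, edgeR's quasi-likelihood test) and 4.94 ± 0.66 in BPI. Cd74, the invariant chain, had 12151, 7722, 9747 and 16090 CPM against 251 and 467. Neither overlapped between IgG and the other libraries. Ciita, the master activator of class II genes, had 207, 11.9, 56.4 and 86.2 CPM against 0 and 3.62, and passed the test in UT alone of the 3 comparisons; whether that differs from BP and BPI was not tested. MHC class I and peptide loading genes were called less uniformly: of 20 tested, 3 rose in BP (Nlrc5, H2-K1 and H2-T23), 5 in BPI and 14 in UT, with medians of 1.90, 2.51 and 2.88.

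Type I interferon antiviral genes gave 1 call of 20 in BP (Ifih1, a sensor of viral RNA), 6 of 20 in BPI and 11 of 21 in UT, with medians of 2.21, 3.41 and 3.40. Rsad2, the antiviral enzyme viperin, had 160 CPM in BP 1, 583 in BP 2, 913 in BPI and 443 in UT against 32.0 and 0 in IgG. It rose by 6.203 ± 1.13 in BPI and 5.06 ± 1.04 in UT, and its difference of 4.58 in BP did not pass. Isg15, a ubiquitin-like modifier, had 325, 1190, 2046 and 1874 CPM against 443 and 61.5, so that BP 1 lay between the IgG libraries and the rest above both. With the minimums, 10 of 20 genes of this list rose in BP.

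Ligands that T cells read changed in a few genes. Cd274, which encodes PD-L1, the target of one of the BP antibodies, had 291 CPM in BP 1, 274 in BP 2, 278 in BPI and 279 in UT against 5.33 and 21.7 in IgG. It rose by 4.13 ± 0.69 in BP (adjusted p = 0.0144, edgeR's quasi-likelihood test), 4.37 ± 0.76 in BPI and 4.27 ± 0.74 in UT. The 4 Cxcl9-positive values lay close together, but the untreated side is the UT library alone, and BP 2 rests on 12 cells and 84041 UMIs. A difference between treated and untreated cells was not tested. Cd40, the receptor that the CD40 agonist engages, had 128, 131, 226 and 193 CPM against 5.33 and 7.24, and rose by 4.18 ± 0.73 in BP. Il18bp, a soluble inhibitor of Il18, had 374, 238, 212 and 429 CPM against 21.3 and 7.24, and rose in all 3 comparisons. Pdcd1lg2, which encodes PD-L2, had 472 CPM in BP 1 and 35.7, 4.7 and 60.03 in BP 2, BPI and UT, and its rise in BP (6.83 ± 1.31) rests mainly on BP 1. Pik3cd and Pik3cg, which encode the 2 PI3K subunits that IPI-145 inhibits, had 9.41 and 18.8 CPM in BPI, against 110 and 25.5 in BP 1 and 35.7 and 11.9 in BP 2; neither passed where it was tested.

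Other genes named by the size of their rise were the following. Gm15056, a predicted gene, had 1796, 714, 1242 and 2623 CPM and no UMI in IgG or in the Cxcl9-negative cells of CD40, at least 194-fold higher in BP. AW112010, an interferon-responsive transcript, had 1196, 512, 1439 and 1892 CPM against 5.33 and 3.62, and rose by 7.48 ± 0.85 in BP. Acod1, which makes itaconate in activated macrophages, had 211, 535, 485 and 431 CPM against 5.33 and 0. These genes were high in every library that holds the cells. Complement factor B (Cfb) had 563, 607, 564 and 1048 CPM against 32.0 and 3.62, and rose by 5.09 ± 0.78 in BP. Spon1, an extracellular matrix protein, had 127, 47.6, 75.3 and 112 CPM and no UMI in IgG. Retnla and Tmem26 were named for BP, but at 155 and 133 CPM in BP 1 they stood at 23.8 and 23.8 in BP 2 and at 0 and 9.41 in BPI.

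The genes that fell over all gated cells had uneven IgG values. Adamts1, a secreted protease, had 3.41 and 0 CPM in the BP libraries against 74.7 and 192 in IgG, and fell by 5.50 on the log2 scale (SE 0.87). Smpd3, a sphingomyelinase, had 1.82 and 0 CPM against 5.33 and 398, so its fall rests on IgG 2. Fcrls, a microglial gene outside the rule, had no UMI in BP, BPI or UT, against 32 and 94.1 CPM in IgG, and fell in BP, where BP 1 supplied 4393143 UMIs and BP 2 84041. The microglia list had medians of -2.59 in BP, -1.85 in BPI and -2.65 in UT over the 6 genes tested. The rule's condition on 3 other microglial genes bears on Fcrls and on this list, and its part was not tested. Lipid-associated macrophage genes had medians of -0.77, -1.70 and -1.06 over 17 genes tested. Of these, Nr1h3, a sterol-sensing receptor, rose in all 3 comparisons, while Gpnmb, a glycoprotein of lysosomes and of lipid-laden macrophages, had 122 and 23.8 CPM in BP and 0 in BPI against 341 and 424 in IgG, and passed in BPI, at least 27.7-fold lower. Spp1, the secreted protein osteopontin, had 1425, 2023 and 395 CPM in BP 1, BP 2 and BPI and 173 in UT against 1243 and 6827 in IgG, and fell in UT by 4.57. In UT, 3 of 12 dissociation and stress genes fell (Egr1, Hspa1a and Hspa1b), with a median of -1.72 beside -0.63 in BP and -0.19 in BPI, where none passed, and their part in the UT results was not tested. Csf1 fell as well, and Xist and Gm42418, which separate that library from the rest as described above, are among its largest falls.

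**Figure D3:**
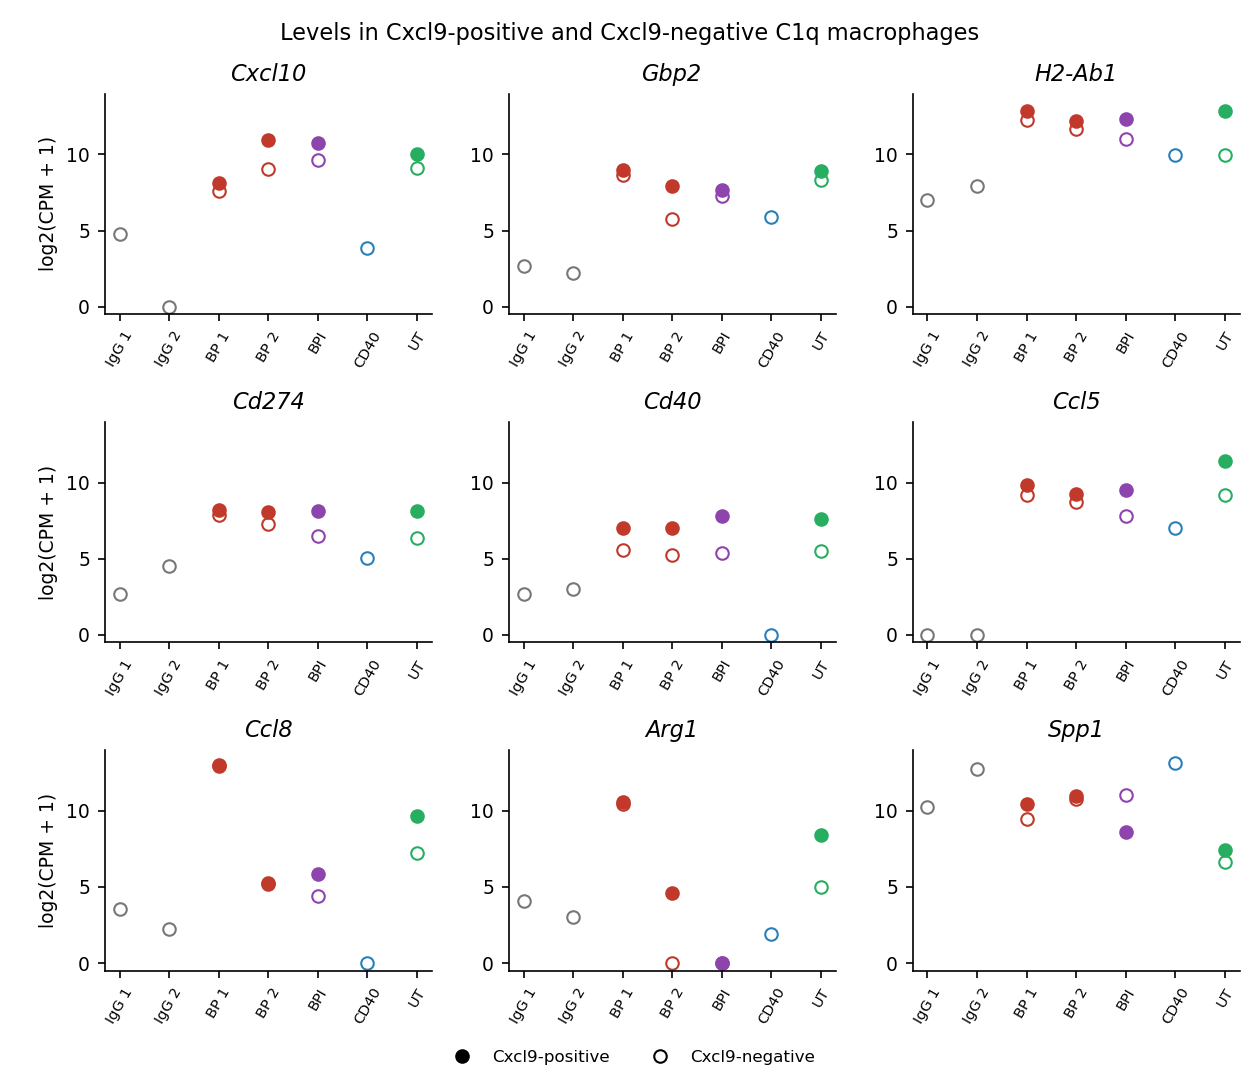
Levels of 9 genes (vertical axes, log2 of CPM + 1) in each library (horizontal axes), filled for Cxcl9-positive and open for Cxcl9-negative C1q macrophages; the single Cxcl9-positive cell of CD40 is left out, and an open point can lie hidden under a filled one of like value. The 4 filled Cd274 values stand at 274 to 291 CPM, all above both IgG values, while Ccl8 and Arg1 are high in BP 1.

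The Cxcl9-negative macrophages of the same tumours were compared with IgG in the same way. In BP, 50 of 6031 genes were higher (0.829%) and 18 lower (0.298%), and in BPI 6 were higher (0.0995%) and none lower. In BP, 8 of 14 GTPases and 5 of 9 MHC class II genes rose, with medians of 3.83 and 4.07. The genes without a UMI in IgG (5 and 1) could only rise, and with these at their bound the medians were 3.18 and 2.88. Cxcl10 rose by 4.91 ± 0.95 in the Cxcl9-negative cells of BP and by 6.25 ± 1.03 in those of BPI, with 190 CPM in BP 1, 532 in BP 2 and 811 in BPI. Ccl5, AW112010 and Gm15056 passed in both. In BPI, 1 of 14 GTPases and none of 9 MHC class II, 15 interferon gamma signalling and 19 MHC class I genes rose, with GTPase and MHC class II medians of 3.96 and 3.39, or 2.67 and 2.48 at the bound, where 1 GTPase gene under the floor was left out. Cd274 rose by 3.59 ± 0.66 in BP. Calls against IgG were thus made in Cxcl9-negative cells too, few of them in BPI over all gated cells. With the minimums there were 161 in BP and 46 in BPI, so the count in BPI depends on the cells taken. The negative class includes cells whose Cxcl9 RNA was not sampled. Over all C1q macrophages, DESeq2 called 3 genes in CD40 against IgG, and with no filter on low counts edgeR called 25. With a block that pairs IgG 1 with BP 2 and IgG 2 with BP 1 it called 34. The main fit of CD40 against IgG by edgeR's quasi-likelihood test gave 0 of 7398 genes (139 at an unadjusted p under 0.05). It gave 28 genes without BP 2, which shares in the estimate of spread, 23 without IgG 1 and 16 without IgG 2, so the count of 0 depends on the libraries fitted. The Cxcl9-negative cells of CD40 had 57.6 CPM of Gbp2, 991 of H2-Ab1 and 130 of Ccl5, above both IgG libraries and below the Cxcl9-negative cells of BP 1.

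**Figure D4:**
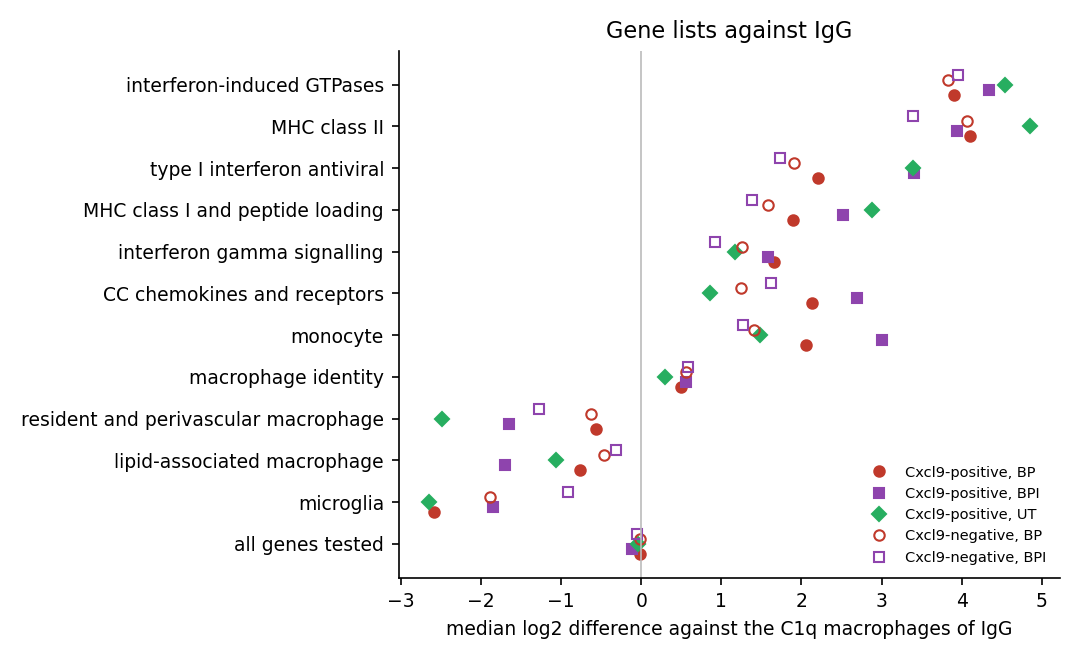
Median log2 difference of each gene list (horizontal axis) against the C1q macrophages of IgG, for Cxcl9-positive cells of BP, BPI and UT (filled) and Cxcl9-negative cells of BP and BPI (open). GTPase and MHC class II fitted medians lie between 3.39 and 4.85 for all 5 sets of cells, and between 2.48 and 4.18 with genes without a UMI in IgG at their bound (not drawn), and the medians of all genes tested between -0.11 and -0.01.

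To ask what goes with Cxcl9 inside one library, which pools tumours of at least 2 mice, Cxcl9-positive and Cxcl9-negative macrophages of the same library were compared in BP 1, BP 2, BPI and UT, with the library as a block. Over all gated cells 205 of 6825 genes were higher (3%) and 275 lower (4.03%), 7.03% in all. Among MHC class II genes 8 of 10 rose, with a median of 1.25 on the log2 scale beside -0.09 over all genes. Phagocytosis and Fc receptor genes gave 6 of 12, monocyte genes 5 of 11, costimulation and checkpoint ligands 5 of 13, CC chemokines and their receptors 5 of 13 and inflammatory cytokines 5 of 13. Of interferon gamma signalling genes 2 of 15 rose, Socs1 among them, of GTPases 2 of 15 (Gbp2b and Gbp5) and of MHC class I genes 0 of 20. Of 14 cell cycle genes 6 fell, and of 6 tumour and glial genes 3 fell. Barcodes below the myeloid or the C1q minimum were more frequent among the Cxcl9-negative cells of BP 1, BPI and UT. Their part in these calls was not tested apart from depth.

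The count depends on which cells enter. With depths matched between the classes 13 genes passed, with 10 or more C1q UMIs per cell 1 gene did, and with the myeloid and C1q minimums 0 of 3040 passed, with 165658 of 799990 UMIs left for the Cxcl9-negative cells of UT (139 at an unadjusted p under 0.05; DESeq2 also gave 0, with 86 unadjusted). Over all gated cells, 74 genes passed without BPI and 79 without UT, in place of 480. In the cells with minimums the list medians were 0.44 for MHC class II, 0.32 for GTPases, 0.20 for interferon gamma signalling and -0.42 for lipid-associated genes, beside -0.01 over all genes.

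Cd40 was higher in Cxcl9-positive cells over all gated cells, at matched depth (1.42 on the log2 scale) and with the minimums. It had 128, 131, 226 and 193 CPM in the Cxcl9-positive cells of BP 1, BP 2, BPI and UT against 47.4, 37.2, 41.3 and 43.8 in the Cxcl9-negative cells, and rose by 1.90 ± 0.24 (adjusted p = 0.00505, edgeR's quasi-likelihood test). With the minimums its values were 140, 143, 226 and 242 against 63.6, 38.5, 54.5 and 211, a difference of 1.02 ± 0.25 that did not pass (adjusted p = 0.365, edgeR's quasi-likelihood test). UT is thus the library where the classes came close. Without UT, 15 genes passed with the minimums, and Cd40 was among them at 1.36 ± 0.26 (adjusted p = 0.0329, edgeR's quasi-likelihood test). Higher with it were Cxcl10 by 0.95, Serpina3g, a serine protease inhibitor, by 1.18, Tnip3, an inhibitor of NF-kappaB signalling, by 1.59, Gpr141, an orphan receptor, by 1.10 and Plac8 by 0.83. Lower were Fabp5, a fatty acid carrier, by 1.81, the lysosomal proteases Ctsl by 1.32 and Ctsd by 1.12, Gdf15, a stress cytokine, by 1.90, and Apoe, a lipid carrier, by 1.01. Lyz2 also passed, but it is one of the genes that set the minimums.

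Ctsd shows the lower side. In cells with the minimums it had 2367 CPM in BP 1, 1620 in BP 2, 724 in BPI and 1584 in UT among Cxcl9-positive cells, and 3059, 4213, 2282 and 2052 among Cxcl9-negative cells. It was lower in all 4 libraries, by 0.93 ± 0.22 on the log2 scale, without passing (adjusted p = 0.365, edgeR's quasi-likelihood test), and over all gated cells the difference was -0.31 ± 0.33. Cx3cr1, the fractalkine receptor, was likewise lower in all 4 libraries, with 14.7, 215, 103 and 42.3 CPM against 25.3, 315, 241 and 127 and a difference of -1.04 ± 0.22, or -0.59 ± 0.24 over all gated cells. In BP 1 the level of Ctsd was 3059 CPM in cells without Cxcl9 and 1627 CPM in cells with 10 or more Cxcl9 UMIs, while Cd40 had 63.6 and 162 CPM in the same cells. In BPI the same classes had 2282 and 656 CPM of Ctsd and 54.5 and 279 CPM of Cd40. In UT they had 2052 and 1688 CPM of Ctsd and 211 and 239 CPM of Cd40, and the 3 classes between them had 308, 273 and 194 CPM of Cd40. Cd274 did not follow the amount of Cxcl9 in BP 1: it had 300 CPM in cells without and 307 CPM in cells with 10 or more Cxcl9 UMIs. In BPI it had 117 and 292 CPM, and in UT 308 and 365 CPM. Ctsd did not fall step by step: with 1, 2 to 4 and 5 to 9 Cxcl9 UMIs it had 3373, 2689 and 2593 CPM in BP 1. In UT it had 2268, 976 and 1602 CPM there. The classes also differ in depth. Over all gated cells the medians were 6275 UMIs without Cxcl9 and 14788 with 10 or more in BP 1. They were 4245 and 6547 in BPI and 5823 and 16820.5 in UT. The part of depth was not tested.

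**Figure D5:**
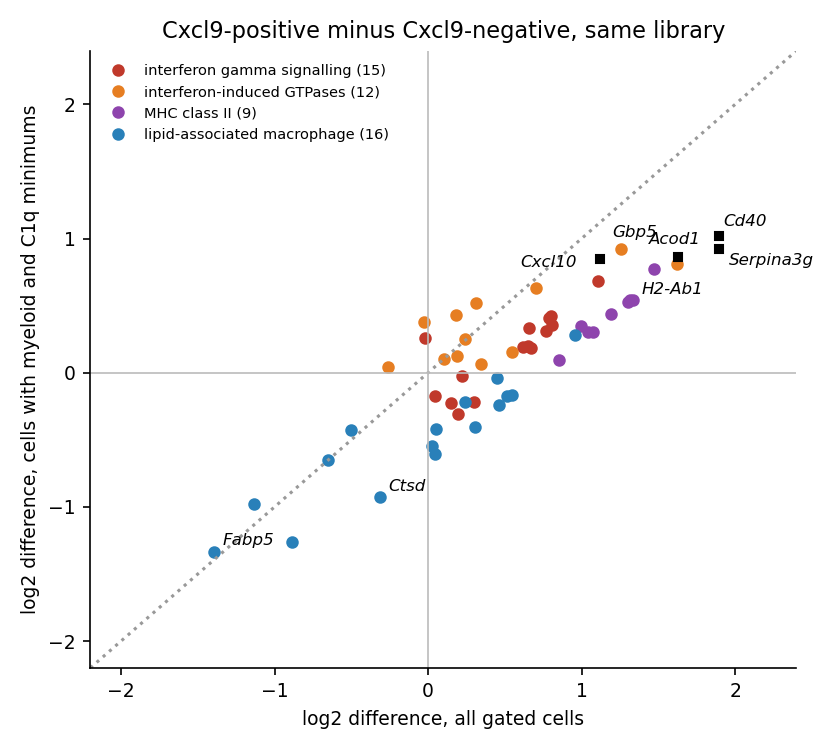
Log2 difference between Cxcl9-positive and Cxcl9-negative macrophages of the same library over all gated cells (horizontal axis) and over cells with the myeloid and C1q minimums (vertical axis), for genes of 4 lists (colours) and 4 other named genes (squares); the dotted line marks equal values. Most genes of MHC class II lie near 1 to 1.5 on the horizontal axis and at 0.8 or less on the vertical axis, and Cd40 has 1.90 and 1.02.

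The same contrast was compared between groups. UT and BPI are 1 library each, so the spread comes from the 2 BP libraries alone, with 1 residual degree of freedom, and is assumed to hold for the others. UT minus BP gave 160 of 6825 genes (2.34%; 158 higher, 2.32%, and 2 lower, 0.0293%), led by Lyz2 (4.07 ± 0.20 on the log2 scale) and Apoe (3.36 ± 0.17), genes that are poor in the Cxcl9-negative cells of UT (465 and 1164 CPM) and rich in its Cxcl9-positive cells (6276 and 9343 CPM). With the minimums 13 genes passed, 1 of them Lyz2, which helps to set the minimums and is not read here. Apoe (2.05), H2-Aa (1.21), H2-Ab1 (0.97) and Ccl8 (1.25) had a larger Cxcl9-positive minus Cxcl9-negative difference in UT than in BP. It was smaller in UT for Ifi27l2a, Plac8, S100a6, Ly6c2, Ms4a4c, Spp1, Tmsb4x and Fcgr1. The direction of Tmsb4x turned with the cells taken, from 0.708 over all gated cells to -0.596 with the minimums. Plac8, S100a6, Ly6c2 and Ms4a4c belong to the list of genes of monocytes, the circulating precursors of tumour macrophages, of which 9 were tested with the minimums. Over all gated cells none of these named genes passed, and Ly6i of the same list had a larger difference in UT than in BP (1.89). BPI minus BP gave 9 genes (0.132%; 5 higher, 0.0733%, and 4 lower, 0.0586%), and 3 with the minimums: Spp1 (-2.87 ± 0.26), Apoe (-1.49 ± 0.14) and Rsad2 (3.00 ± 0.40). With the minimums, Spp1 had 395 CPM in Cxcl9-positive and 2072 in Cxcl9-negative cells of BPI, 1610 and 1030 in BP 1, and 2409 and 2074 in BP 2. The labels give UT the same chemistry as the other libraries although its barcodes come from another list, and library and group cannot be told apart.

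Cxcl9-positive macrophages were not alike across libraries, and the following values are descriptions. Ccl8, a chemokine of tissue macrophages, had 7801 CPM in BP 1, 35.7 in BP 2, 56.4 in BPI and 823 in UT. Arg1, arginase, had 1552, 23.8, 0 and 343 CPM, and Chil3, a chitinase-like protein, 2254, 0, 155 and 8.34. Mrc1, the mannose receptor, had 882, 0, 56.4 and 3.33 CPM. BP 1 was the highest library for all 4 of these genes, which are commonly linked to alternative activation, and the Cxcl9-negative cells of BP 1 had them too, with 8228, 1391, 3058 and 656 CPM. BP 2 and BPI were high in other chemokines. Ccl2, which draws monocytes, had 2023 and 2446 CPM there against 152 in BP 1 and 521 in UT, and Ccl12 had 3320 and 2582 against 306 and 670. Cxcl2, which draws neutrophils, had 1511 and 1557 CPM against 51.7 and 68.4. Il1b, an inflammatory cytokine, had 797 and 1181 CPM against 271 and 135. These genes were picked because they separate BP 1 from BP 2 and BPI. BP 2 rests on 12 Cxcl9-positive cells and 84041 UMIs. Gm42418 was 5978 CPM in BP 1 and 26499 and 32753 in BP 2 and BPI, so this transcript moves with these genes, and its part was not tested. The ribosomal share of UMIs was 9.62% in BP 1, 14.5% in BP 2, 13.9% in BPI and 14.5% in UT in the median Cxcl9-positive cell.

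Interferon gamma RNA in T cells of the same libraries is given beside these results. T cells made up 0.671% of cells in IgG 1, 0.687% in IgG 2, 9.09% in BP 1, 3.64% in BP 2, 8.401% in BPI, 1.62% in CD40 and 3.48% in UT. Their Ifng level was 38.5 and 41.1 CPM in IgG, 195 and 327 in BP, 1022 in BPI, 28.6 in CD40 and 183 in UT. The 4 libraries with Cxcl9-positive macrophages in number were the 4 with T cell Ifng at 183 CPM or more. The other 3 had 41.1 CPM or less. The IgG levels rest on 7 Ifng UMIs from 42 T cells and 19 from 55. An Ifng UMI was found in 14.3% and 16.4% of T cells in IgG and 20% in CD40. The shares were 26.2% in BP 1, 36.5% in BP 2, 35.4% in BPI and 33.7% in UT. The exact intervals of IgG 1 (5.43 to 28.5), IgG 2 (7.77 to 28.8) and CD40 (13.6 to 27.7) overlapped that of BP 1 (23.4 to 29.1). Each level or share is 1 value per library from the same droplets and depth. No test was made of a match between Ifng and Cxcl9-positive macrophages.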

How the data were processed

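Single-cell RNA was counted in 7 libraries with 10x Genomics droplets. The deposited values are raw UMI counts per gene and barcode, not normalized, made by the authors with Cell Ranger 4 per the file headers, while the submitters' processing notes name Cell Ranger 7.0.1 and the mouse build mm10. Cells were regrouped here from these counts over 32285 genes, with no deposited annotation, and the members and gene lists were chosen with earlier results of these data known.

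Counts were summed per library and class of cell and fitted with edgeR 4.0.16 in R 4.3.3 (TMM, its filter on low counts, quasi-likelihood test, Benjamini-Hochberg adjustment over all genes tested, threshold 0.05). The within-library fit took 4 libraries with at least 10 cells of each class, with the library as a block and the 10 gate genes left out. The fits against IgG took libraries with at least 5 cells. IgG held no Cxcl9-positive cell, so its C1q macrophages served as comparator, a choice made after the data were seen, like the fits of Cxcl9-negative cells, the differences between groups, and the myeloid and C1q minimums. No test of the 1 Cxcl9-positive cell of CD40, or of the within-library difference between BP and IgG, was possible.

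Intervals are exact (Clopper-Pearson or Poisson, 95%). A gene without a UMI in a group has a floor of 3 counts over that group. Intervals and floors cover counting error only. Fitted log2 differences of such genes depend on the prior count and are printed only for Cxcl9, in the closing section. Text names up to 12 genes with the largest rise and fall that passed, had a mean log2 CPM of at least 5 and the same direction in each library, all genes of 3 lists (Cxcr3 chemokines and receptor, interferon gamma signalling, drug targets) and, from the other lists, up to 4 called genes with the largest difference and 2 with the highest level. The genes that separate BP 1 from BP 2 and BPI, and those called without UT or between groups, were chosen after their values were seen.

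Alternatives were RLE size factors, DESeq2 1.42.0, no filter on low counts, Scrublet (scanpy 1.11.5) at 0.8% per 1000 cells, other thresholds, matched depth, and leaving out each library. Doublets were not removed otherwise. The scores marked 8.33 to 13.9% of the Cxcl9-positive cells in BP 1, BP 2, BPI and UT. Of the Cxcl9-negative cells they marked 13.9% in BP 1, 28% in BP 2, 12.1% in BPI and 8.47% in UT. The comparators had 9.52% in IgG 1, 17.9% in IgG 2 and 21.2% in CD40. Of all cells 4.50 to 8.44% per library were marked. The fit was tested on simulated data. Total UMIs per library were 68997476 to 186793886. Cxcl11, Mx1, Mx2, Clec7a and Ddit3 were not analysed here. Results for some genes are not reported here.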

Additional observations from a re-analysis of the deposited data

Results flagged for a closer look

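The Cxcl9-positive minus Cxcl9-negative difference was compared between groups by the interaction of class and group in edgeR's quasi-likelihood test. For UT minus BP, 160 genes differed, among them H2-Aa (2.60 on the log2 scale), H2-Ab1 (2.39) and Ccl8 (2.61). With the myeloid and C1q minimums 13 genes did, 5 higher and 8 lower in place of 158 and 2, with H2-Aa at 1.21, H2-Ab1 at 0.97 and Ccl8 at 1.25. For BPI minus BP, 9 genes differed. UT and BPI are 1 library each, the spread comes from the 2 BP libraries with 1 residual degree of freedom, and a group and its library cannot be told apart.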

How the results depend on the processing

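The BP minus IgG difference in the share of macrophages with Cxcl9 was 29.2 to 45.8 points under the alternatives that kept all libraries. Without BP 2 it rests on BP 1 alone (52.2%). As a share of all cells, Cxcl9-positive macrophages were 3.43% in BP 1, 0.200% in BP 2 and 0 in IgG. IgG held a Cxcl9-positive cell only with no microglial condition, so under the other alternatives the sign could not turn. The Cxcl9 level in all C1q macrophages, BP against IgG, lost its call with no microglial condition (4.79) and without BP 1 (10.70), and ranged from 10.70 to 13.04 with 1 library left out. These log2 values depend on the prior count. It was 12.82 with a replicate block.

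The within-library count of 480 genes became 284 by DESeq2, 1070 with no filter on low counts, 210 without the highest Scrublet scores, 769 with at least 2 Cxcl9 UMIs, 1 with at least 10 C1q UMIs, 13 at matched depth and 0 with no library block. With 1 library left out it ranged from 74 to 391 (306 without BP 1, 74 without BPI, 79 without UT). With the myeloid and C1q minimums it was 0, also at matched depth, by DESeq2 and with RLE factors, and 0 to 15 with 1 library left out (2 without BP 2, 15 without UT). There 3040 genes were tested in place of 6825. Over all C1q macrophages the counts were then 167 in BP, 108 in BPI and 2 in CD40. Over all gated cells they were 138 and 67 in BP and BPI, 0 and 6 without BP 1, 311 and 227 without BP 2, 239 and 199 without IgG 1, 99 and 67 without IgG 2, 69 and 56 by DESeq2, and 0 and 0 with no microglial condition. The CD40 count of 0 became 28 without BP 2, 23 without IgG 1, 16 without IgG 2 and 3 by DESeq2. The UT minus BP difference then gave 13 genes and BPI minus BP 3.

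For Cxcl9-positive cells of BP against IgG, 87 genes became 143 with RLE factors, 344 with no filter, 152 without the highest Scrublet scores, 140 with at least 10 C1q UMIs, 148 without lymphoid UMIs, 142 with at least 2000 UMIs, 240 with the minimums, 182 with at least 2 Cxcl9 UMIs, and 101 to 346 with 1 library left out (194 without IgG 1, 226 without BP 1, 346 without BP 2). For BPI, 93 became 260 with no filter, 218 with the minimums and 87 to 349 with 1 library left out (178 without IgG 1, 330 without BP 1, 349 without BP 2). For UT, 151 became 96 by DESeq2, 314 with no filter, 307 with the minimums and 100 to 364 with 1 library left out (100 without IgG 2, 340 without BP 1, 364 without BP 2). For the Cxcl9-negative cells of BP, 68 became 27 by DESeq2, 224 with no filter, 168 with at least 10 C1q UMIs, 33 without lymphoid UMIs, 161 with the minimums and 34 to 177 with 1 library left out (176 without IgG 1, 34 without BP 1, 177 without BP 2). For those of BPI, 6 became 60, 43 and 46 with no filter, 10 C1q UMIs and the minimums, and 9 to 93 with 1 library left out (93 without IgG 1, 36 without BP 1, 38 without BP 2). The cause was not tested.

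Numbers of IgG and BP share only a number: deviations of IgG 1 and BP 1 had r = -0.11 over 4952 genes. A replicate block gave 93 genes in BP, 81 in BPI, and 98 and 32 in the Cxcl9-negative cells of BP and BPI. The crossed replicate block gave 280, 190, 197 and 43. Over all C1q macrophages the crossed block gave 313 genes in BP, 180 in BPI and 34 in CD40, and no filter on low counts gave 344, 222 and 25.

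Of 2022 values of single genes under an alternative, 1604 kept direction and call, 319 lost the call and 49 gained it. A further 47 changed sign with no call in either fit, and 3 changed sign with a call in at least 1 of them. All sign changes were in the Cxcl9-positive against Cxcl9-negative contrast. With the minimums, Cavin3, Cxcl9-positive against Cxcl9-negative, was at 0.060 without BPI, and Apoe (-1.01) and Lyz2 (-0.75), which helps to set the minimums, were lower in Cxcl9-positive cells without UT. Cxcl9-positive cells of BP 2 (12) and the IgG macrophages (21 and 28) limit the depth of each comparison that uses them.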
